A study of Mus musculus with 6 samples.

Results

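The genes of nitric oxide and arginine metabolism were followed in RAW 264.7, a mouse macrophage cell line, after exposure to bacterial endotoxin. They are the inducible nitric oxide synthase Nos2, the arginine transporter Slc7a2, the arginine-rebuilding enzymes Ass1 and Asl, the cofactor enzyme Gch1, the arginases Arg1 and Arg2, and the polyamine enzymes Odc1, Srm and Sms. These 10 genes were taken by name, and their probes were those that the platform annotation assigns to them, which gave 11 of 16281 probes and 9 of 10698 genes. Nos2 and Slc7a2 had 2 probes each and 7 genes had 1. Asl was not analysed here. Treated cells had received 100 ng/ml of lipopolysaccharide (LPS) and 100 pM of its binding protein (LBP) for 48 h, and untreated cells were kept for 48 h with neither agent. LBP is a serum protein that hands LPS to its receptors on the cell. RAW 264.7 is a virus-transformed line, so both conditions share that background.

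Treated and untreated total RNA were hybridised together on 6 arrays, 3 with treated RNA in the red dye Cy5 and 3 with treated RNA in the green dye Cy3, as sets 1, 2 and 3 in each orientation. They are called Cy5 arrays and Cy3 arrays after the dye of the treated RNA. Every value below is a log2 ratio of treated over untreated cells, with the sign turned on the Cy3 arrays. The deposited ratios carry no statement of their logarithm's base, which was taken as 2, and folds would be larger with natural logarithms. A mean is that of the 3 set means, each over both orientations, ± SD (n = 3). Exact zeros, 7.97% to 17.8% of the values on an array, were treated as missing. Il6, Il1b and Tnf, textbook LPS-induced cytokine genes that are no members, averaged 3.81 ± 0.62, 3.53 ± 0.30 and 0.96 ± 0.18 and were above 0 on all 6 arrays under this reading of the dyes. The arrays give ratios and no levels, so presence of macrophage markers could not be checked. Of 8 tested macrophage markers, Fcgr1 and Adgre1 rose by 1.96 ± 0.15 and 0.94 ± 0.09 and Csf1r fell by 0.53 ± 0.22. Of 18 tested markers from other cell types, the fibroblast marker Dcn and the B cell marker Cd79a rose, by 2.68 ± 0.95 and 0.63 ± 0.11, and 0 fell by limma (1 at an unadjusted p under 0.05). The other fibroblast markers tested, Col1a1, Col1a2 and Col3a1, stood at 0.01 ± 0.07, 0.07 ± 0.24 and -0.21 ± 0.16, and the other B cell marker tested, Ms4a1, at 0.02 ± 0.24, and none of these 4 passed. In either direction 37.5% of the macrophage markers and 11.1% of the other markers passed, against 26.1% of all genes tested. The marker genes were named after their values were seen. The part of any change in cell makeup in the results was not tested. A ratio from bulk RNA cannot tell more RNA per cell from more cells that carry it.

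Arginine stands at a fork in macrophages. Nitric oxide synthase turns it into nitric oxide and citrulline, needs tetrahydrobiopterin as a cofactor, and is fed by uptake of arginine and by its rebuilding from citrulline. Arginase instead splits arginine into urea and ornithine, and ornithine is the start of the polyamines putrescine, spermidine and spermine. Nos2 is a hallmark of classically activated mouse macrophages and Arg1 of alternatively activated ones.

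Treated cells had higher ratios for the inducible synthase, its cofactor enzyme, 1 of the 2 arginases and the first enzyme of the polyamine branch. Odc1, Gch1, Nos2, Arg2 and Ass1 rose, Srm fell, and Arg1, Slc7a2 and Sms did not pass (limma, Benjamini-Hochberg adjusted p under 0.05 over 9180 genes). Of the 9 genes tested, 5 were thus higher and 1 lower, against 14.3% of all genes tested that were higher and 11.9% that were lower. In either direction 66.7% of the 9 passed, against 26.1% of all genes. The median over the 9 was 0.36, and over all genes tested it was -0.01. The genes had been chosen with results of these arrays known, so these shares are a description. Nothing in the labels says that the sets came from separate cultures, and the p-values measure the spread between 3 set means, which may be technical.

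**Figure D1:**
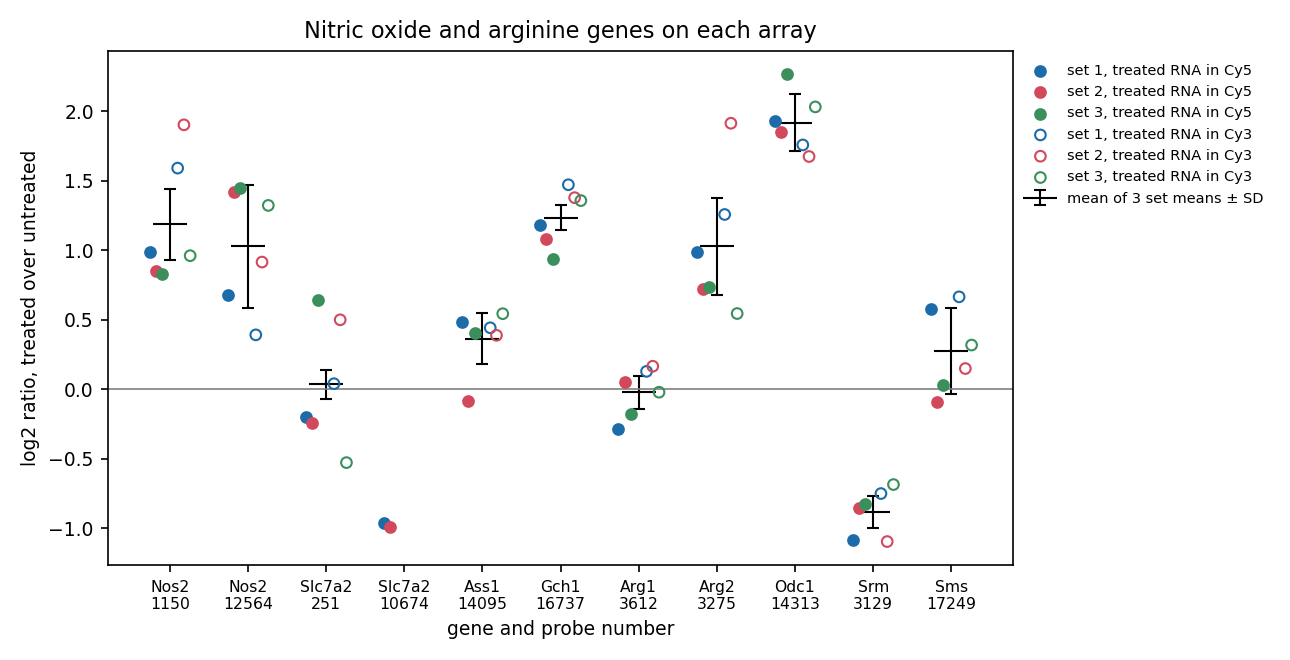
Log2 ratio of treated over untreated cells (vertical axis) for each probe of the nitric oxide and arginine genes (horizontal axis, gene and probe number), 1 point per array, filled for treated RNA in Cy5 and open for treated RNA in Cy3, coloured by set, with the mean of the 3 set means and its SD where all 6 arrays had a value. All points of Odc1, Gch1, Arg2 and both Nos2 probes lie above 0, all points of Srm lie below 0, and Arg1 and probe 251 of Slc7a2 lie on both sides.

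RefSeq promoter windows (GRCm38.p6, 250 bases before to 50 after the start site) were on hand for 4 of the 10 genes, and those of the 3 that rose, Gch1, Ass1 and Odc1, are shown. Capitals mark the matches found on either strand to 7 motifs, which were the E-box CACGTG, an interferon regulatory factor core GAAANNGAA, the STAT element GAS TTCNNNGAA, the cyclic AMP element CRE TGACGTCA, the AP-1 site TGANTCA, the box CCAAT and the kappaB consensus of NF-kB. No 2 matches overlapped in these windows.
Gch1, chr14:47189364-47189663, minus strand: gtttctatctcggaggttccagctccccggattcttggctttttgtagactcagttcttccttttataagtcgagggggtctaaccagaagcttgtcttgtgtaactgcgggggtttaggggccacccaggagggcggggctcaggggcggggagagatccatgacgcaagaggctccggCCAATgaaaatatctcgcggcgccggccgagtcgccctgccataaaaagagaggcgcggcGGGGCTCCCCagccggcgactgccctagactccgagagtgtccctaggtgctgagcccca
Ass1, chr2:31470020-31470319, plus strand: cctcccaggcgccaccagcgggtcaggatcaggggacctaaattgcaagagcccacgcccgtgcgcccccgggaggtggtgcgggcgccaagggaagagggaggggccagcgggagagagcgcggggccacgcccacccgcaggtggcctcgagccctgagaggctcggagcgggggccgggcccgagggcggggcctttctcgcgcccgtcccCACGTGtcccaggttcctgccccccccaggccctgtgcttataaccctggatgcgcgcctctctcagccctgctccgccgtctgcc
Odc1, chr12:17544623-17544922, plus strand: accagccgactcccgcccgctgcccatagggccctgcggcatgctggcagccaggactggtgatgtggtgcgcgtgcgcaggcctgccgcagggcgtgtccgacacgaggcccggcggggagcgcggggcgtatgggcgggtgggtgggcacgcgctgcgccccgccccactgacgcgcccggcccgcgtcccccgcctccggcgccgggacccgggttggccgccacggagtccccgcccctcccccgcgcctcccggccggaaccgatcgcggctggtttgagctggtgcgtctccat

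The Gch1 window held a kappaB match, GGGGCTCCCC, from -10 to -1 relative to the start site and a CCAAT box from -70 to -66. Of 32851 promoter windows of the same length, 4.51% held a kappaB match and 37.4% a CCAAT box. The Ass1 window held an E-box from -36 to -31, as did 7.15% of all windows. None of the 7 motifs was found in the Odc1 window, and bases outside the windows were not searched. The 2 windows of Sms, which did not pass, are not shown. One of them had an E-box from -196 to -191 and a CCAAT box from -231 to -227, and the other had a kappaB match from -103 to -94. The other shares of all windows were 8.56% for GAAANNGAA, 8.30% for GAS, 1.79% for CRE and 7.81% for AP-1. These matches are letters in a window and were not tested as binding sites or against the ratios.

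Nos2, which makes nitric oxide from arginine, was higher in treated cells by both of its probes. Probe 1150 read 0.99, 0.85 and 0.83 on the Cy5 arrays of sets 1, 2 and 3 and 1.59, 1.90 and 0.96 on the Cy3 arrays. Probe 12564 read 0.68, 1.42 and 1.45 on the Cy5 arrays and 0.39, 0.91 and 1.32 on the Cy3 arrays. All 12 readings lay above 0, but the probes ranked the arrays differently, and probe 1150 was the higher one on 3 of 6 arrays. Set 3 was the lowest set for probe 1150 (0.89) and the highest for probe 12564 (1.38). The probes averaged 1.19 ± 0.26 and 1.03 ± 0.44 and passed in the fit over 12724 probes (limma, adjusted p = 0.00013 and 0.00151), where 27.1% of all probes passed. The gene mean was 1.11 ± 0.18, a 2.15-fold increase (limma, adjusted p = 0.000238), and 228th from the top among 9180 genes. Averaging the probes made this SD smaller than that of either probe, so it understates the spread of the single probes.

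Gch1, which catalyses the first committed step toward tetrahydrobiopterin, rose with a smaller SD over the set means than Nos2. Over the 6 arrays the gene values ran from 0.94 to 1.47 for Gch1 and from 0.83 to 1.41 for Nos2. Gch1 read 1.18, 1.08 and 0.94 on the Cy5 arrays and 1.47, 1.38 and 1.36 on the Cy3 arrays. Every reading in Cy3 was above every reading in Cy5, yet all 6 stood near or above 1. The mean was 1.23 ± 0.09, or 2.35-fold (limma, adjusted p = 6.42e-05). Each set mean averages over both orientations, so this SD understates the spread between arrays. The difference between orientations did not pass as a dye effect (limma, adjusted p = 0.136), and 0.0871% of all genes passed that test.

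Ass1, which joins citrulline and aspartate on the way back to arginine, showed a small increase. It read 0.49, -0.081 and 0.41 on the Cy5 arrays and 0.44, 0.39 and 0.54 on the Cy3 arrays. A single array, that of set 2 in Cy5, stood below 0 and apart from the other readings. The mean was 0.36 ± 0.18, or 1.29-fold (limma, adjusted p = 0.0287), higher on 5 of 6 arrays. This call was lost with zeros kept as values, without set 1 and without set 3 (adjusted p = 0.0867, 0.0997 and 0.123). The adjusted p over all the alternatives ran from 0.00241 to 0.123. Probe 14095 of Ass1 had no zero itself, and its ratio was the same with zeros kept.

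Slc7a2, the cationic amino acid transporter CAT-2 that brings arginine into activated macrophages, gave no stable direction. Its probe 251 read -0.20, -0.24 and 0.64 on the Cy5 arrays and 0.04, 0.50 and -0.53 on the Cy3 arrays. Within each of the 3 sets the orientations had opposite signs, so the readings cancelled in the set means, and the small SD of 0.04 ± 0.11 understates the spread between arrays. Probe 10674 had values on 2 arrays, -0.96 and -0.99 in Cy5 of sets 1 and 2, and was listed at 0 on the other 4. With both probes averaged, the gene stood at -0.09 ± 0.17 (limma, adjusted p = 0.527), with a 95% interval from -0.31 to 0.13 on the log2 scale. With only the fully measured probe it stood at 0.04 (adjusted p = 0.801). On the 2 arrays where both probes had values, both read below 0 but differed in size. Slc7a2 is known to be spliced into forms of unlike affinity, but which form each probe matches was not analysed here. No cause of the difference was tested.

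The arginases gave ratios that did not overlap. Arg2, the mitochondrial arginase, read 0.99, 0.72 and 0.73 on the Cy5 arrays and 1.26, 1.91 and 0.54 on the Cy3 arrays, all above 0 and widest in Cy3. It averaged 1.03 ± 0.35, or 2.04-fold (limma, adjusted p = 0.00151). Arg1, the cytosolic arginase of liver and of alternatively activated macrophages, read -0.29, 0.06 and -0.18 on the Cy5 arrays and 0.13, 0.17 and -0.02 on the Cy3 arrays. It was above 0 on 3 arrays and below on 3, and averaged -0.02 ± 0.12 (adjusted p = 0.879), with a 95% interval from -0.22 to 0.18. The highest Arg1 reading, 0.17, lay under the lowest Arg2 reading, 0.54. The difference of Arg2 minus Arg1 was 1.05 ± 0.27 over the set means and ran from 0.57 to 1.75 over arrays, a description of log2 ratios and not of levels. Nos2 minus Arg2 was 0.08 ± 0.37 and above 0 on 3 of 6 arrays, so the ratios of the synthase and of Arg2 were not separated by the spread of the sets.

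Odc1, ornithine decarboxylase, which makes putrescine and limits the rate of polyamine synthesis, had the highest ratio of the 9 genes. It read 1.93, 1.85 and 2.27 on the Cy5 arrays and 1.76, 1.67 and 2.03 on the Cy3 arrays. Set 3 was highest in both orientations, and each reading was above every reading of Gch1, the next gene in the order. The mean was 1.92 ± 0.20, or 3.78-fold (limma, adjusted p = 2.28e-05), 92nd from the top among 9180 genes.

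Of the enzymes after Odc1, Srm fell and Sms did not pass. Srm, spermidine synthase, which turns putrescine into spermidine, read -1.08, -0.85 and -0.82 on the Cy5 arrays and -0.75, -1.09 and -0.68 on the Cy3 arrays. All 6 readings were below 0 and below every reading of the other members as averaged per gene, though probe 10674 of Slc7a2 also reached -0.99. Srm fell by 0.88 ± 0.11 on the log2 scale, or 1.84-fold (limma, adjusted p = 0.000393), and was 60th from the bottom among 9180 genes. Sms, spermine synthase, which makes spermine from spermidine, read 0.58, -0.09 and 0.03 on the Cy5 arrays and 0.66, 0.15 and 0.32 on the Cy3 arrays. Set 1 stood above the other sets in both orientations, and the mean of 0.27 ± 0.31 did not pass (limma, adjusted p = 0.14, 95% interval -0.01 to 0.56). Without set 1 it was 0.10. Sms minus Srm was 1.16 ± 0.33, and Odc1 minus Srm was 2.80 ± 0.09, both above 0 on 6 of 6 arrays. Over arrays these differences ran from 0.76 to 1.66 and from 2.51 to 3.09.

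Ordered by mean log2 ratio, the genes ran Odc1, Gch1, Nos2, Arg2, Ass1, Sms, Arg1, Slc7a2 and Srm. Over the 6 arrays Odc1 did not overlap with Gch1, and Slc7a2 did not overlap with Srm. Arg2 and Ass1 were apart only by 0.544 against 0.543, the lowest reading of the first and the highest of the second. Every other pair of neighbours in this order overlapped.

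**Figure D2:**
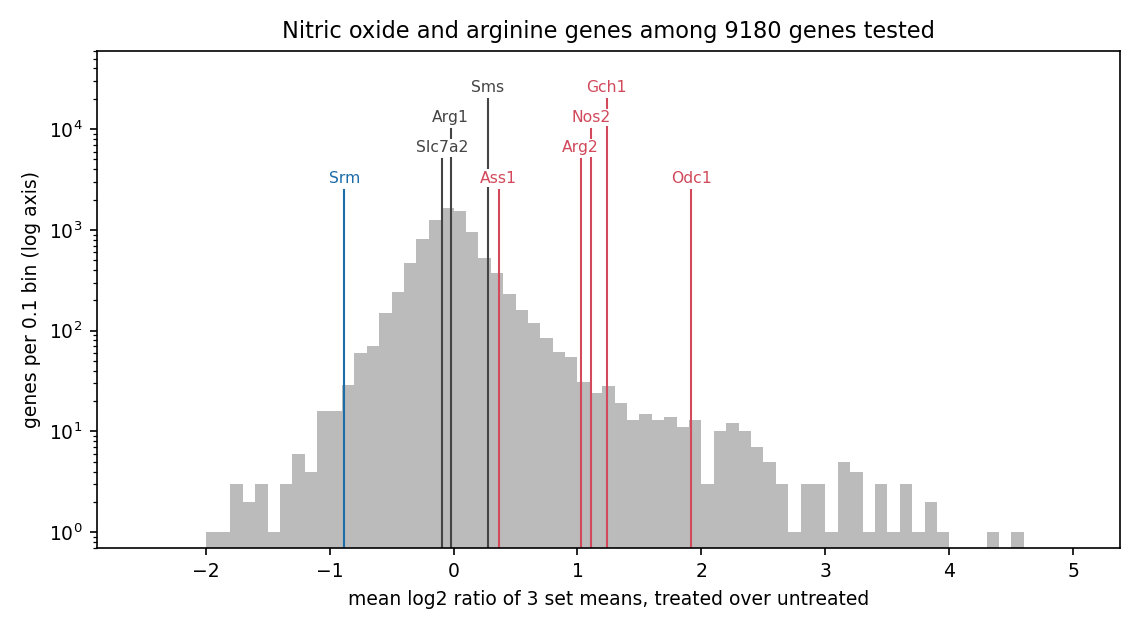
Number of genes (vertical axis, logarithmic) by mean log2 ratio of treated over untreated cells (horizontal axis, bins of 0.1) for all 9180 genes tested, with vertical lines at the 9 nitric oxide and arginine genes, red for higher, blue for lower and dark grey for not passing. Odc1 at 1.92 lies in the upper tail, Gch1, Nos2 and Arg2 lie between 1.03 and 1.23, Srm at -0.88 lies in the lower tail, and Slc7a2, Arg1, Sms and Ass1 lie in the bulk.

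Genes read differently in the dye orientations. As averaged per gene, all but Odc1 stood higher on the Cy3 arrays, though probe 251 of Slc7a2 alone did not. Arg2 averaged 0.81 ± 0.15 on the Cy5 arrays and 1.24 ± 0.68 on the Cy3 arrays. Gch1 averaged 1.07 ± 0.12 on the Cy5 arrays and 1.40 ± 0.06 on the Cy3 arrays (SD, n = 3 each). Probe 1150 of Nos2 averaged 0.89 ± 0.09 on the Cy5 arrays and 1.48 ± 0.48 on the Cy3 arrays, and its other probe went the opposite way, at 1.18 ± 0.44 and 0.88 ± 0.47. Srm stood at -0.92 ± 0.14 on the Cy5 arrays and -0.84 ± 0.22 on the Cy3 arrays, and Odc1 at 2.01 ± 0.22 and 1.82 ± 0.19 in the same order. The dye effect passed for none of the 9 genes, with adjusted p-values from 0.136 for Gch1 to 0.824 for Slc7a2 (limma).

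**Figure D3:**
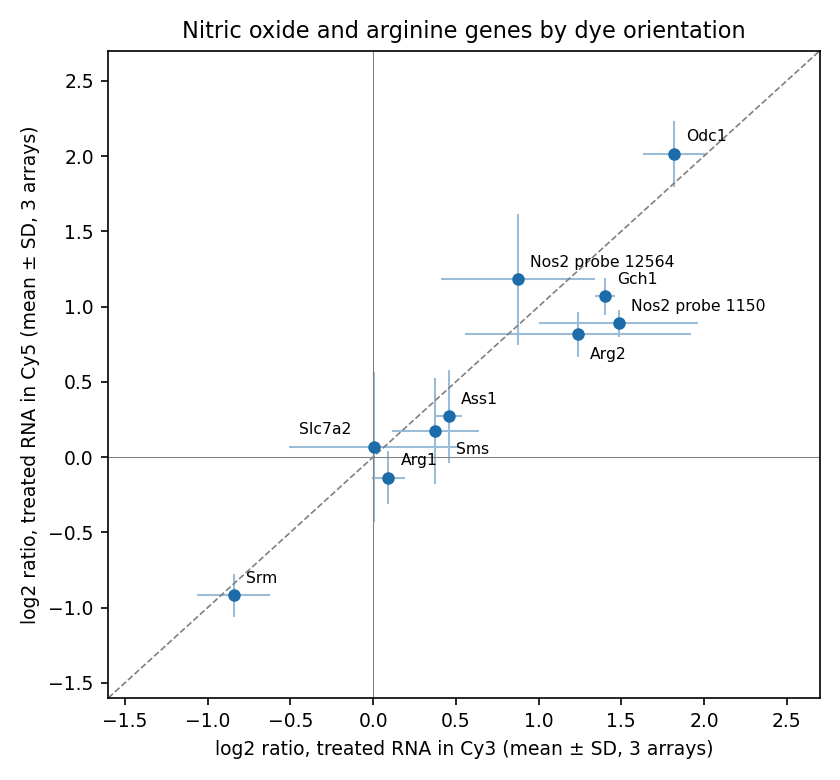
Mean log2 ratio of treated over untreated cells on the 3 Cy5 arrays (vertical axis) against that on the 3 Cy3 arrays (horizontal axis), ± SD, for the 10 probes with a value on all 6 arrays; the dashed line marks equality. Odc1, Srm, Gch1, Arg2 and the Nos2 probes keep their sign in both orientations with bars clear of 0. All points but Odc1, probe 12564 of Nos2 and Slc7a2 lie below the line. Slc7a2 and Arg1 have bars that span 0 both ways.

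Other genes of the pathway changed in both directions. Around the 10 genes, 5 lists with 81 other names were drawn up, of which 45 genes could be tested. Of these 9 rose and 9 fell, so 40% passed against 26.1% of all genes, and their median log2 ratio was -0.08. For counts at an unadjusted p, here and for the markers, the share over all genes was not computed.

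Among 12 genes of nitric oxide synthesis and its cofactors, 2 rose and 2 fell (median -0.04), and at an unadjusted p under 0.05 the counts were 2 and 3 (limma). Thus 33.3% passed by adjusted p, against 26.1% of all genes tested. The count that fell was 0 with zeros kept and without set 2, 1 without set 1 or set 3, and 4 with no replicate block. The count that rose was 1 with zeros kept and without set 1 or set 2. Pcbd2, a pterin dehydratase, rose by 0.41 ± 0.08, and Nosip, which binds the endothelial synthase, rose by 0.36 ± 0.22. Qdpr, which regenerates tetrahydrobiopterin, fell by 0.34 ± 0.13 and calmodulin Calm2 fell by 0.34 ± 0.14. Calm2 read from -0.68 to -0.41 on the Cy5 arrays and from -0.20 to 0.06 on the Cy3 arrays. Nos1 and Nos3, the neuronal and endothelial synthases, did not pass, at -0.08 ± 0.13 and -0.26 ± 0.09 (limma, adjusted p = 0.571 and 0.0531), and Pts, the enzyme after Gch1, was at 0.10 ± 0.04 without passing. These 3 were named after their values were seen. The calls of Nosip, Calm2 and Qdpr were lost with zeros kept (adjusted p = 0.118, 0.0682 and 0.063). Nosip and Qdpr were also lost without set 1 (adjusted p = 0.121 and 0.0834) and without set 2 (0.151 and 0.107), and Calm2 without set 2 or set 3 (0.103 and 0.119).

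Arginine transport had 2 of 6 tested genes higher and 1 lower (median -0.06), and 2 of each at an unadjusted p under 0.05 (limma). By adjusted p 50% passed, against 26.1% of all genes tested. Slc7a7, the light chain of a transporter that exchanges cationic for neutral amino acids, rose by 0.81 ± 0.26 (1.75-fold), and its heavy chain partner Slc3a2 rose by 0.42 ± 0.11. Both probes of Slc3a2 passed, at 0.44 and 0.41. The mitochondrial ornithine carrier Slc25a15 fell by 0.51 ± 0.13, with 1 array, that of set 3 in Cy5, at 0.026. Its relative Slc25a2 was at -0.24 ± 0.10 and did not pass (adjusted p = 0.0739). On single arrays with no set block it passed with all 6 arrays (limma, adjusted p = 0.0271). In that fit it also passed without the array of set 1 in Cy5 (adjusted p = 0.0233), but not without any other array. Slc25a2 read from -0.67 to -0.32 on the Cy5 arrays and from -0.05 to 0.09 on the Cy3 arrays. Slc7a1, the general cationic amino acid transporter CAT-1, was at -0.15 ± 0.38 and did not pass. Its readings split by dye, from -1.13 to -0.57 on the Cy5 arrays and from 0.04 to 0.98 on the Cy3 arrays, and it was named for that after its values were seen.

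Of 10 genes of the urea cycle, ornithine and proline, 0 rose and 4 fell (median -0.06), against 14.3% of all genes that were higher and 11.9% that were lower. At an unadjusted p under 0.05 the counts were also 0 and 4 (limma). Gatm and Gamt, which build creatine from arginine and glycine, fell by 0.45 ± 0.14 and 0.44 ± 0.09. Oat, which turns ornithine toward glutamate and proline, fell by 0.39 ± 0.05, and Prodh, which degrades proline, fell by 0.39 ± 0.25. These last 2 were named after their values were seen, and the call of Prodh was lost with zeros kept, without set 1 and without set 3 (limma, adjusted p = 0.119, 0.0649 and 0.157). Without set 3, Prodh stood at -0.27. The proline synthesis genes Aldh18a1 and Pycrl were highest in the list, at 0.16 ± 0.16 and 0.13 ± 0.05, and did not pass.

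Polyamine metabolism had 4 of 10 tested genes higher and 2 lower (median -0.13), and 4 and 5 at an unadjusted p under 0.05 (limma). By adjusted p 60% passed, against 26.1% of all genes tested. With no replicate block the counts were 4 higher and 4 lower with all 6 arrays. In that fit they were 3 and 4 without either single array of set 3. With zeros kept they were 2 and 1, and without set 2 the lower count was 1. Sat1, the acetyltransferase that starts polyamine breakdown, rose by 0.78 ± 0.19, and spermine oxidase Smox rose by 0.71 ± 0.13. Azin1, which keeps antizyme off ornithine decarboxylase, rose by 0.74 ± 0.47, with set 1 highest in both orientations (1.23 and 1.31). Without set 1 it was 0.47 and still passed, and with zeros kept its call was lost (adjusted p = 0.115). The antizyme Oaz2, which marks ornithine decarboxylase for degradation, rose by 0.31 ± 0.17, a call lost with zeros kept, with arrays scaled to 1 spread, without set 2 or set 3 and without either array of set 3 (limma, adjusted p = 0.0505 to 0.225), while antizyme Oaz1 was at -0.24 ± 0.12 without passing. Smox, Oaz2 and Oaz1 were named after their values were seen. Mtap, which salvages the methylthioadenosine left by spermidine and spermine synthesis, fell by 0.53 ± 0.18. The polyamine exporter of lysosomes Atp13a2 fell by 0.31 ± 0.10, a call lost with zeros kept and without set 1, set 2 or set 3 (adjusted p = 0.0568 to 0.136).

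Of 7 genes of the response to nitric oxide, 1 rose and 0 fell by limma, and at an unadjusted p under 0.05 the counts were 2 and 1. Thus 14.3% passed by adjusted p, against 26.1% of all genes tested. In 2 alternatives 1 gene was lower, the single arrays with no replicate block and the fit without the Cy5 array of set 1. Haem oxygenase Hmox1, which many stresses raise, rose by 1.29 ± 0.24 (2.45-fold). The cyclic GMP-dependent kinase Prkg2 was at 0.33 ± 0.37 with 1 of its 2 probes listed at 0 on all arrays and did not pass, though it passed without set 1, at 0.54 (limma, adjusted p = 0.00701). Gucy1a1, a subunit of the soluble guanylate cyclase that senses nitric oxide, was at -0.25 ± 0.14 and did not pass (limma, adjusted p = 0.0759). On single arrays with no replicate block it passed with all 6 arrays (limma, adjusted p = 0.0461). In that fit it also passed without the array of set 1 in Cy5 (adjusted p = 0.027). Adh5, which removes nitrosoglutathione, was at -0.16 ± 0.08 and did not pass.

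**Figure D4:**
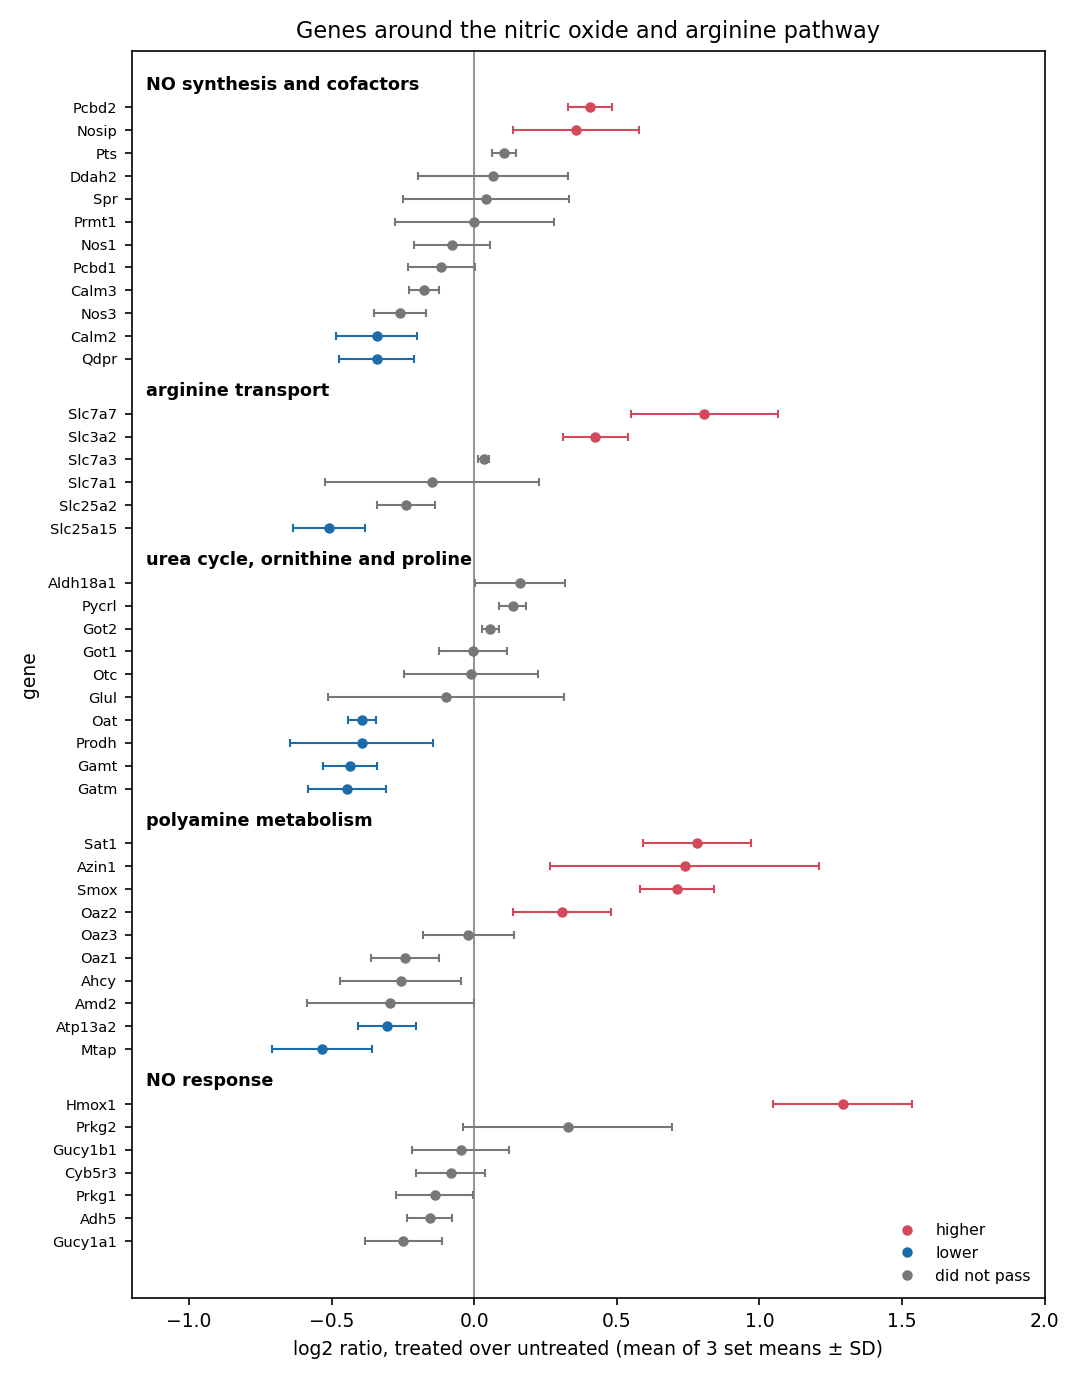
Mean log2 ratio of treated over untreated cells (horizontal axis; bars are the SD over sets) for the 45 tested genes (vertical axis) of 5 lists around the nitric oxide and arginine genes, red for higher, blue for lower and grey for not passing. Hmox1 at 1.29, Slc7a7 at 0.81 and Sat1 at 0.78 are the highest, and Mtap at -0.53 and Slc25a15 at -0.51 the lowest.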

How the data were processed

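Total RNA of RAW 264.7 cells with and without LPS and LBP was compared on 6 two-colour arrays. For each array, the deposited value of a probe is a log ratio, taken here as log2 and read as Cy5 over Cy3 from the labels, which name Cy5 as test. No source used here gives the logarithm's base, background correction, dye normalization or scanner. Arrays of the same orientation correlated at 0.67 to 0.77 across probes and those of opposite orientation at -0.66 to -0.41. The number of arrays limits the precision. In the gene fit described next, eBayes moderated each gene's variance with 5.24 prior degrees of freedom, drawn from all genes tested.

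Of 16281 probes, 13738 had 1 gene symbol in the platform annotation, 52 had several and 2491 had none. Zeros were set to missing, signs turned, probes of a gene averaged per array, and both orientations of a set averaged. Genes with a value on all 6 arrays were fitted over all genes with limma 3.58.1 in R 4.3.3 (intercept, eBayes, 2 residual degrees of freedom), two-sided, with p-values adjusted by the Benjamini-Hochberg method, threshold 0.05. The procedure was tested on simulated data with errors drawn independently for each array, so errors shared within a set were not simulated. Set numbers were checked for pairing (correlations of deviations 0.50, 0.09 and 0.16). All deposited columns were mapped. The genes, lists and tests were chosen with earlier results of these data known. The text names all 10 genes, the 2 highest and 2 lowest tested members of each list, Il6, Il1b and Tnf, and others where it says so. Alternatives were zeros kept, no filter, probe-level fits, fully measured probes, single arrays with a dye term with and without a set block, re-centring, rescaling, and leaving out each set or array. Fits without 1 array took the remaining single arrays as replicates, with a dye term and no set block.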

Additional observations from a re-analysis of the deposited data

Results flagged for a closer look

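In 36 genes examined over the 6 arrays, 3 had a single array whose gap to the nearest other array as a share of the gene's whole range exceeded Dixon's 95% critical value for 6. By chance about 1 gene in 20 does so, and no cause was tested. Ass1 read -0.081 on the array of set 2 with treated RNA in Cy5, with the nearest other array at 0.39. Without that array Ass1 averaged 0.45 (limma on single arrays with no set block, adjusted p = 0.00241). The same fit with all 6 arrays gave 0.36 (limma, adjusted p = 0.0115). Slc25a15 read 0.026 and Gatm read -0.12 on the array of set 3 with treated RNA in Cy5, with the nearest others at -0.48 and -0.46. Without that array they averaged -0.60 and -0.51 (limma on single arrays with no set block, adjusted p = 0.000693 and 0.00146). With all 6 arrays this fit gave -0.51 and -0.45 (limma, adjusted p = 0.00232 and 0.00185). Such fits count each array as a replicate, so their p-values are not comparable with those from 3 set means.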

How the results depend on the processing

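Under the 17 other settings Odc1, Gch1, Nos2 and Arg2 stayed higher and Srm stayed lower past the threshold, with log2 ratios of 1.80 to 1.99, 1.19 to 1.28, 1.03 to 1.20, 0.86 to 1.22 and -0.94 to -0.82. Ass1 lost its call in 3 of them, and Arg1, Slc7a2 and Sms passed in none. With zeros kept, 634 genes were lower (942 higher), and 5 genes of the pathway lists were lower. With 6 arrays and no replicate block, 15 genes of the pathway lists were lower. With a replicate block for the set number, 5 and 1 of the 9 genes and 1338 and 1113 of all genes were higher and lower, so the block changed no call among the 9 or the named pathway genes. By their correlations the numbers did not clearly pair the arrays, although each Cy5 array deviated most like the Cy3 array of the same number. The consensus correlation within sets was 0.34. Leaving out a set or an array gave 688 to 1277 lower genes, the lowest without set 3. Without a set, 2 set means remain and fewer samples enter the fit. Signal over background is unknown, which limits what a ratio near 0, as for Arg1, shows.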
